A study of Mus musculus with 180 samples.

Results

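Cells with both Spp1 and Col3a1 transcripts were examined in a pooled mouse embryoid body library. Spp1 encodes osteopontin, a secreted phosphoprotein that binds integrins and CD44, and Col3a1 encodes the chain of type III collagen. Members were selected on their measured RNA, as cells with at least 5 Spp1 and at least 3 Col3a1 UMIs (unique molecular identifiers, 1 per captured transcript). Of 20134 cell barcodes, 17789 were kept with at least 1000 detected genes and at most 15% of UMIs from mitochondrial genes, and 888 of these were members. That is 4.99% of the kept cells, with an exact 95% binomial interval of 4.68% to 5.32%, which covers counting error only. Another 2 cells passed both gene thresholds but were left out because they held all of the cardiac genes Tnnt2, Myl7, Myl4 and Actc1 with a sum of at least 20 UMIs. The remaining 16901 kept cells served for comparison.

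Mesenchyme is the loose, matrix-secreting tissue that mesoderm forms in the early embryo, and its cells make fibrillar collagens, proteoglycans and contractile proteins. Osteopontin is known as a component of mineralizing matrix and is also made by macrophages and some epithelia, so it marks no single lineage. Embryoid bodies are free-floating aggregates of differentiating pluripotent cells that form such mesoderm derivatives without added inducers.

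The study asks how mouse strain background bears on the differentiation of embryonic stem cells. Embryonic stem cells went through the epiblast-like state for 48 h, were aggregated at 750 cells per embryoid body for 48 h, and were rotated for a further 48 h. Cells of each embryoid body sample were tagged with a lipid-anchored hash barcode, pooled at 3000 cells per sample, and 40000 cells were loaded on 1 lane, against the 20134 barcodes recovered. The labels give the pool as a mixture of B6 (C57BL/6J) and D2 (DBA/2J) cells with no gene deleted and no compound added, and every sample shared this culture. The hash table has 12 columns, D1, D2, D31, D32, D331, D332 and D333, C1 and CB, and B1, B2 and B3. The sources used here do not pair these names with a strain or line, so the groups are called D, C and B columns, and the labels number the barcodes only up to 10. Nothing states that the columns came from separate cultures, and the 5 columns whose names start with D3 may share one. The p-values below therefore measure only the spread between columns.

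All cells came from a single RNA library of 723201396 UMIs, in which no cell barcode appeared more than once. Kept cells held 1414 to 192674 UMIs, with a median of 37932, and members held 8172 to 162674, with a median of 44407 against 37583 in the other kept cells. A cell was assigned to a hash column when its largest hash count was at least 2 times its second. By this rule 15568 kept cells were assigned, and 13.2% of members and 12.4% of the other kept cells were not. Median hash counts were 2333 to 3660 in the D columns, 1966 to 2142 in the C columns and only 354 to 493.5 in the B columns.

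The genes that define the selection are described first, without a test. A member held 5 to 761 Spp1 UMIs, with quartiles of 9, 19 and 49, and 3 to 63 Col3a1 UMIs, with quartiles of 5, 10 and 15. The Spp1 distribution has a long upper tail, and the Col3a1 distribution is narrow. The 66 cells with exactly 5 Spp1 UMIs that passed on Col3a1 had 186 CPM of Igfbp7 (UMI counts scaled to a total of 1000000), and the 89 cells just outside, with 4, had 211 CPM. The 73 cells with exactly 3 Col3a1 UMIs that passed on Spp1 had 78.5 CPM of Igfbp7, and the 93 cells just outside, with 2, had 86.5 CPM. Igfbp7, a secreted protein that binds insulin-like growth factors and is not part of the selection, was thus at like levels on either side of both thresholds. Nupr1, a stress-induced gene, was not. It was at 483 CPM just inside and 293 CPM just outside the Spp1 threshold, and at 175 CPM just inside and 262 CPM just outside the Col3a1 threshold.

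Spp1 lies on the plus strand of chromosome 5 at chr5:104435118-104441050 and Col3a1 on the plus strand of chromosome 1 at chr1:45311538-45349706 (GRCm38, which is mm10, GENCODE vM21). The 250 bases upstream of the first RefSeq start site of each are shown because these genes define the cells (RefSeq, build GRCm38.p6, plus strand, chr5:104434861-104435110 and chr1:45311288-45311537). Capitals mark TGTGGT, the core that RUNX factors bind, or CCAAT, each on either strand.
Spp1: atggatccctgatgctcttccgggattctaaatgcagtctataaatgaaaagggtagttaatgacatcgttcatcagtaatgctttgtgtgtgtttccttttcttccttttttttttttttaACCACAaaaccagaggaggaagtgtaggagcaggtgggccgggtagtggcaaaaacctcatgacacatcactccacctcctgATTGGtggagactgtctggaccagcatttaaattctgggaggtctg
Col3a1: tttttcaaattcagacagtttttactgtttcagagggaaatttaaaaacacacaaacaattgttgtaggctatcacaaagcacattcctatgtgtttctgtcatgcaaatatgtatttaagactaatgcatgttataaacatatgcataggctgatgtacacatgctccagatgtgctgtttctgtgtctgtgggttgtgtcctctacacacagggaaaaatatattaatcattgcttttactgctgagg

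The Spp1 window held 1 TGTGGT core and 1 CCAAT, both read on the opposite strand, and the Col3a1 window held neither. TGTGGT occurred in 14.05% and CCAAT in 33.85% of the same windows of 32851 RefSeq start sites. Of the 25 genes that lead the list of higher genes below, 17 matched the RefSeq table, of which 2 (Emp1 and Spp1) held TGTGGT and 6 held CCAAT. A gene was counted when any of its start sites held the letters, so these counts are not comparable with the shares of single windows. Runx1, a RUNX factor of blood and mesenchymal cells, was at 87.2 CPM in members and 36.2 CPM in the other kept cells. These matches describe the letters only.

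Members were far less frequent in D than in B columns. They made up 1.14%, 0.733%, 0.788%, 0.697%, 1.04%, 0.781% and 1.00% of the kept cells of D1, D2, D31, D32, D331, D332 and D333, a mean of 0.884% ± 0.175 (SD, n = 7). In C1 and CB they made up 5.32% and 6.88%. In B1, B2 and B3 they made up 18.6%, 15.9% and 17.3%, a mean of 17.2% ± 1.36 (SD, n = 3). Every D column lay below both C columns, and both C columns lay below every B column. The D minus B difference was -16.35 percentage points (exact permutation test over columns, two-sided, p = 0.0167, the smallest that 7 against 3 columns can give). With the 5 D3 columns summed to 1, the difference was -16.33 points and the exact permutation test gave p = 0.1, the smallest possible for 3 against 3. Without any one B column it gave p = 0.0556, again the smallest possible for 7 against 2. Both selection genes were also lower in the other kept cells of D than of B columns. Among these cells Spp1 was at 11.91 to 21.07 CPM in D and 129.5 to 200.4 CPM in B columns. Col3a1 was at 4.805 to 8.105 CPM in D and 50.17 to 61.4 CPM in B columns. Whether the member shares differ beyond such column-wide levels of the selection genes was not tested.

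**Figure D1:**
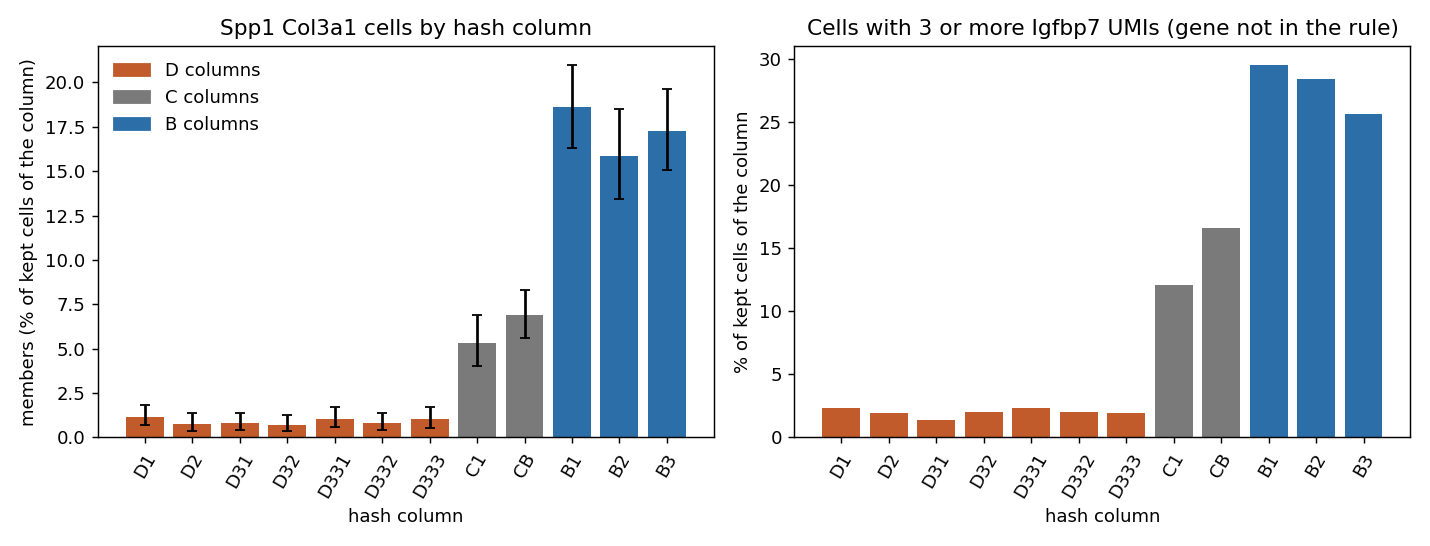
Percentage of kept cells that were members (left, with exact 95% binomial intervals) and percentage with at least 3 Igfbp7 UMIs (right), by hash column, coloured by the letter of the column. D columns stand at 0.697% to 1.14% members, C columns at 5.32% and 6.88%, and B columns at 15.9% to 18.6%, and Igfbp7 gives the same order of the letters.

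Genes outside the selection rule followed the same order. Cells with at least 3 Igfbp7 UMIs made up 1.38% to 2.29% of the D columns, 12.1% and 16.6% of the C columns and 25.6% to 29.6% of the B columns. Cells with at least 20 UMIs of Mfge8, a secreted glycoprotein that bridges phosphatidylserine to integrins, made up 4.04% to 5.81%, 22.3% and 22.4%, and 38.3% to 40.0% of the D, C and B columns in that order. For Mmp9, the gelatinase that cleaves type IV collagen, cells with at least 3 UMIs made up 2.44% to 5.86% of D, 20.2% and 20.5% of C and 26.2% to 27.7% of B columns. Each of the 3 genes separated D from B columns without overlap, by -25.91, -34.44 and -23.22 points, each with an exact permutation p = 0.0167 and the same value after Benjamini-Hochberg adjustment over the 3. The genes are measured in the same cells, so they are not independent of each other or of the member count. Igfbp7 and Mfge8 are also label markers of these cells, and Mmp9 is among the leading higher genes below. All 3 were thus chosen as high in members, which are mostly B cells, so their p-values add no separate evidence to the member share.

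The order of the letters was the same at equal depth. Kept cells had a median of 39749 UMIs in D, 33152 in C and 36337 in B columns, so the columns with fewest members were the deepest. With every cell thinned to 20000 UMIs, members made up 0.148% to 0.614% of the D columns, 3.85% and 4.19% of the C columns and 10.2% to 12.2% of the B columns. That left out 1013 D, 473 C and 446 B cells that held fewer UMIs. As a measure of free RNA, 34 D, 90 C and 8 B cells with at least 500 UMIs of the globins Hba-x, Hbb-bh1, Hbb-y and Hba-a1 together were inspected. At least 1 Spp1 UMI was seen in 47.1% of them in D, 21.1% in C and 0% in B columns, against 22.8%, 28.5% and 51.2% of all kept cells of these letters. The 0 of 8 in B columns allows a share of up to 37.5%. At least 1 Col3a1 UMI was seen in 5.88%, 16.7% and 12.5% of the globin cells in D, C and B columns, against 13.6%, 44.8% and 50.2% of all kept cells. The globin cells had a median of 58171, 28974 and 56536 UMIs in that order. In D columns the share of cells with any Spp1 UMI was thus below that of the globin cells, and expression is not read from it. Of these globin cells, 0 in D, 3 in C and 0 in B columns were members. The 0 of 34 in D columns allows a share of up to 8.82% and the 0 of 8 in B columns up to 37.5%. Both limits lie above the member shares of these columns, so the counts cannot say how often free RNA makes a member.

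Most of the 89 members assigned to D columns carried B hashes. Their highest B-column hash count had a median of 359, against 10 in the other kept cells of the D columns. The second largest hash was a B column in 66 of the 89 members (74.2%), against 8.11% of the other 9964 cells. Their median depth was 68131 UMIs against 39580, whereas members and other cells had 44250 and 32442 in C columns and 41634 and 34987 in B columns. By contrast, 21 of the 89 D members had under 50 counts of every B hash, and those had a median of 66514 UMIs. Whether droplets with cells of different columns contribute to the D members was not tested beyond these values, and no doublet caller was run.

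**Figure D2:**
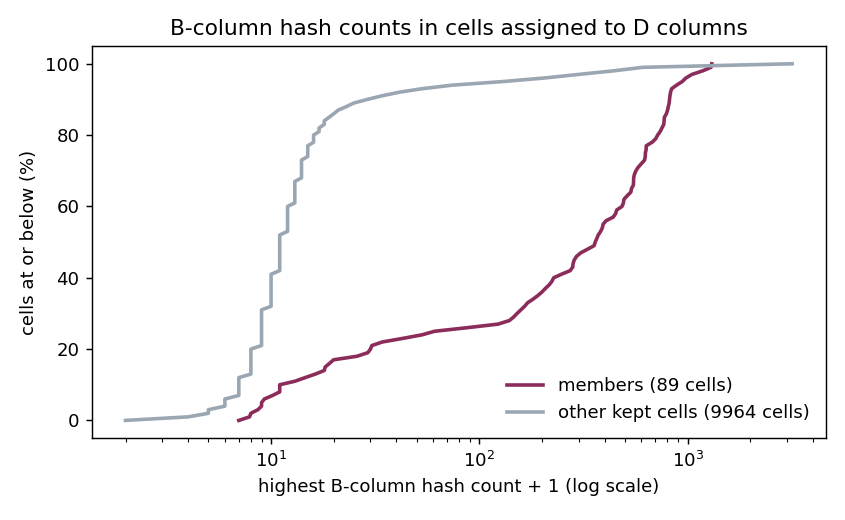
Cumulative percentage of cells assigned to D columns (vertical axis) by their highest B-column hash count plus 1 (log scale), for the 89 members and the 9964 other kept cells. The median is 359 counts in members and 10 in the other cells.

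Leaving out cells with 50 or more counts of a hash of another letter lowered the D shares further. Members then made up 1 of 1283 cells in D1, 3 of 1183 in D2, 2 of 1303 in D31, 1 of 1210 in D32, 4 of 1245 in D331, 0 of 1221 in D332 and 2 of 1198 in D333. The count of 0 in D332 allows a share of up to 0.246%. The B columns held 17.8%, 16.5% and 17.3% members among such cells. The difference was -17.06 points (exact permutation p = 0.0167, the smallest possible).

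The transcripts of D members lay between those of other D cells and of B members for some genes. Tpm3-rs7, named after its values were seen and a near copy of Tpm3 that may share its reads, was at 164 CPM in D members with under 50 B hash counts and at 113 CPM in those with 50 or more, against 237 CPM in other D cells. It was at 111 CPM in C members and 135 CPM in other C cells, and at 9.38 CPM in B members and 9.60 CPM in other B cells. Acta2, smooth muscle actin, was at 823 CPM in D members with under 50 B hash counts and 1679 CPM in those with more, against 181 CPM in other D cells, and at 2407 CPM in B members and 921 CPM in other B cells. Hand1, a factor of extra-embryonic and lateral mesoderm, was at 381 and 382 CPM in these groups of D members, against 753 CPM in other D cells.

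Because members are mostly B cells and other kept cells are mostly D cells, a ratio over pooled cells mixes the cell state with the column. A pooled and a within-column measure were therefore computed for each gene. Levels given for members and other kept cells without a column or letter are pooled. The pooled ratio is the log2 ratio of CPM in all members to CPM in all other kept cells, with 1 CPM added. The within-column ratio is the mean of the same log2 ratio in the 5 columns with at least 20 members, which are C1, CB, B1, B2 and B3, with its SD over those columns. Members and other cells come from 1 library and the split uses the same RNA, so neither ratio has a test. Of 14599 genes with at least 10 UMIs observed or expected in members, 95 (0.651%) were at least 4-fold higher and 29 (0.199%) at least 4-fold lower in the pooled cells. Within columns, 199 (1.36%) were at least 2-fold higher and 287 (1.97%) at least 2-fold lower. These shares apply to the 2-fold counts of every gene list below, and a count of 0 in a short list cannot be told from them. Counts of list genes higher or lower in all 5 columns are given without a share over all genes, and are not read as a result about a list. Of the 95 genes, 92 were higher in all 5 columns and 89 had a within-column mean of at least 2-fold, but only 12 genes reached 4-fold within columns. The median log2 over the tested genes was -0.0026 pooled and -0.022 within columns.

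The 3 label markers outside the rule differed in how much of their pooled ratio remained within columns. Igfbp7 had 231 and 136 CPM in members of C1 and CB and 267, 277 and 241 CPM in members of B1, B2 and B3. The other kept cells had 28.96 and 39.5 CPM in C1 and CB and 56.2, 58.5 and 52.0 CPM in B1, B2 and B3. Members were above the other cells in every column, by 2.27 ± 0.43 on the log2 scale (SD, n = 5 columns).

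Mfge8 had 1042 and 942 CPM in members of the C columns and 1597, 1495 and 1543 CPM in members of the B columns. The other cells had 375 and 384 CPM in the C columns and 560, 604 and 544 CPM in the B columns. Members lay above the other cells in every column, by 1.42 ± 0.11 on the log2 scale. For Grb10, an imprinted adaptor protein that dampens insulin receptor signalling, the columns differed more than members did from the other cells of their column. Members had 44.1 and 57.5 CPM in the C columns and 222, 222 and 238 CPM in the B columns. Other cells had 17.1 and 18.9 CPM in the C columns, 179, 164 and 151 CPM in the B columns and 8.41 to 13.8 CPM across the D columns. Other cells of every B column thus exceeded the members of both C columns, and the pooled log2 ratio of 2.19 came down to 0.85 ± 0.55 within columns.

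**Figure D3:**
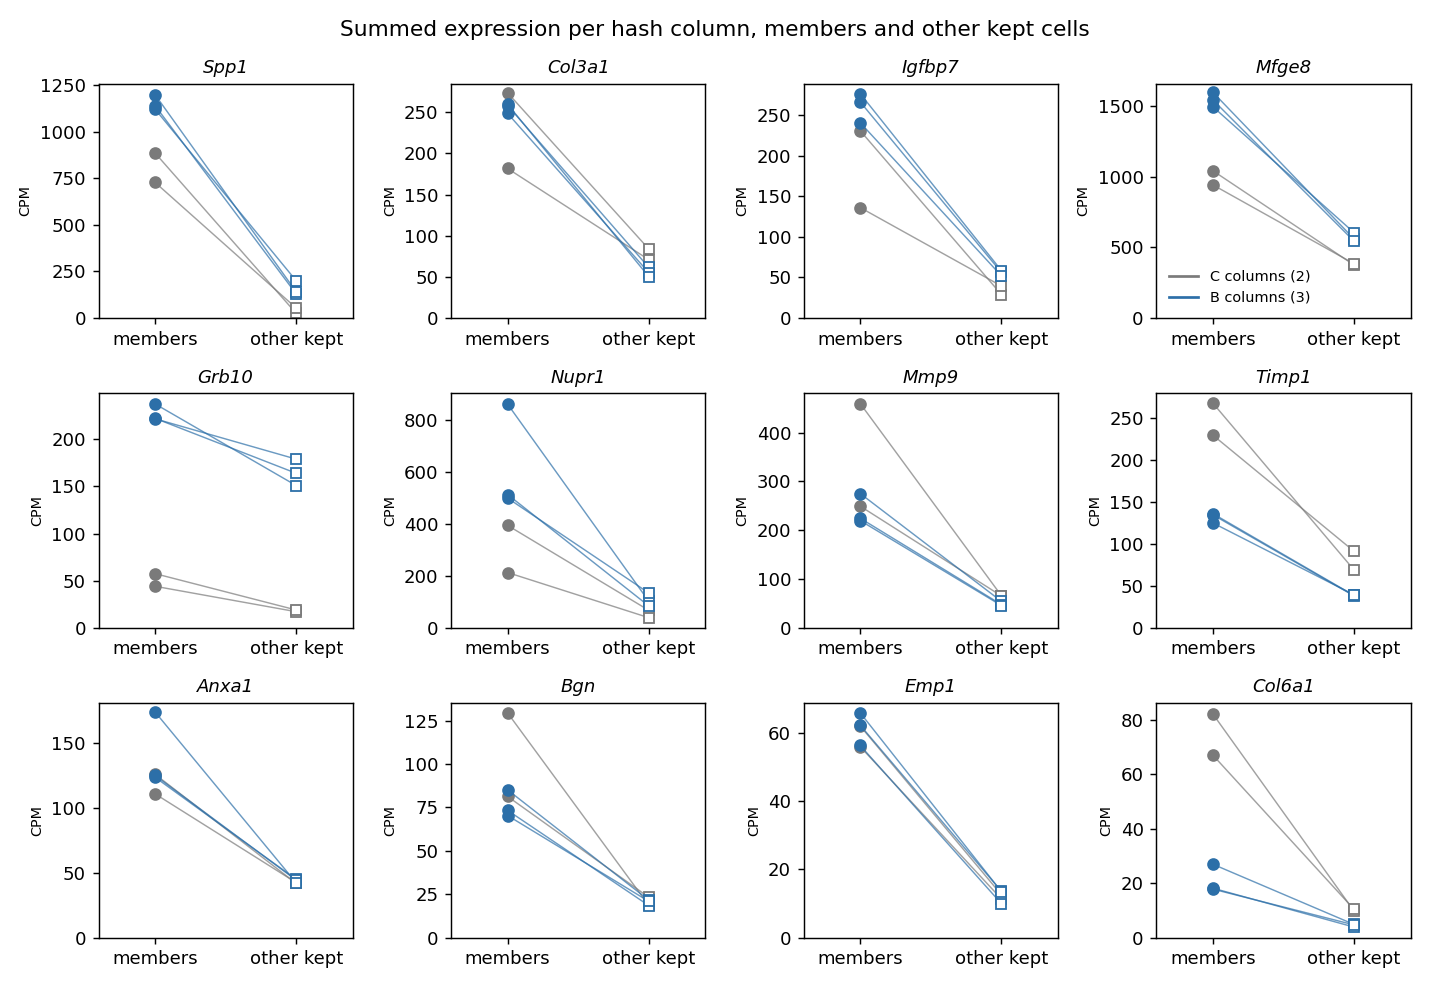
CPM of 12 genes in members (filled circles) and other kept cells (open squares), summed over the cells of each hash column, with a line joining the groups of a column, for 2 C columns (grey) and 3 B columns (blue). Members lie above the other cells of the same column for every gene shown, and for Grb10 the B columns lie above the C columns in both groups.

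The genes leading the pooled ratio included the matrix and matrix-cleaving genes Col3a1, Bgn, Tnc, Col6a1, Mgp and Mmp9. The 25 genes with the largest ratio, among those with at least 100 UMIs in members and higher in all 5 columns, were Spp1, Nupr1, Igfbp7, Mmp9, Emp1, Col3a1, Megf10, Cd28, Aldh1a3, Prkg2, Bgn, Iglon5, Anxa1, Mgp, Insl6, Col6a1, Klhdc8a, Slfn2, Cspg4, Tnc, Timp1, Hoxb5os, Npnt, Prune2 and Prkcb. Nupr1, a small stress-induced chromatin protein, had 394 and 213 CPM in members of C1 and CB and 861, 499 and 513 CPM in members of B1, B2 and B3. Other cells had 67.4 and 39.0 CPM in the C columns and 102, 134 and 84.2 CPM in the B columns. The groups did not overlap, and the within-column log2 ratio was 2.50 ± 0.42.

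Mmp9 had 460 and 249 CPM in C members and 275, 225 and 220 CPM in B members. Other cells had 65.8 and 65.3 CPM in the C columns and 54.3, 47.6 and 45.7 CPM in the B columns, so the ratio was 2.30 ± 0.31. Timp1, an inhibitor of such metalloproteinases, was higher together with it. It had 268 and 230 CPM in C members and 125, 135 and 136 CPM in B members, against 69.1 and 91.3 CPM and 39.3, 38.1 and 38.7 CPM in the other cells. In both members and other cells the C columns were above the B columns for Timp1.

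Emp1, a tetraspan membrane protein, varied least among the leading genes after Prkcb, a protein kinase C, with ratios of 2.23 ± 0.10 and 1.80 ± 0.09. Megf10, a receptor for apoptotic cells, was at 26.1 CPM in members and 2.22 CPM in other kept cells, and was detected in 61.6% and 5.90% of them. Cd28, known as a costimulatory receptor of T cells, was at 13.2 and 0.870 CPM and was detected in 22.8% of members and 1.92% of others. Aldh1a3, a retinoic acid synthesizing enzyme, was higher in B than in C members. It had 8.98 and 18.9 CPM in members of C1 and CB and 67.9, 73.1 and 61.3 CPM in members of B1, B2 and B3, against 5.49 and 5.57 CPM and 20.1, 22.6 and 21.2 CPM in the other cells. Hoxb5os is annotated as antisense, and no source used here states whether counting used strand, so its counts may hold reads of the overlapping genes.

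Extracellular matrix genes were in part higher in members. Of 27 fibrillar matrix genes, 26 passed the filter on low counts, 9 were at least 2-fold higher within columns and 0 were 2-fold lower. Their median was 0.73, beside -0.022 over all genes tested. Type VI collagen, a beaded-filament collagen around cells, was higher in the 3 chains of the list. Col6a1 had 82.0 and 67.0 CPM in C members and 26.9, 18.2 and 17.8 CPM in B members, against 9.76 and 10.4 CPM and 4.85, 3.88 and 4.68 CPM in the other cells. Its ratio was 2.30 ± 0.48, and those of Col6a2 and Col6a3 were 1.62 ± 0.77 and 1.83 ± 0.48. Biglycan (Bgn, 2.01 ± 0.42), tenascin C (Tnc, 1.63 ± 0.30), thrombospondin 1 (Thbs1, 1.53 ± 0.20), Loxl1 (1.33 ± 0.60), Col1a2 (1.19 ± 0.53) and periostin (Postn, 1.14 ± 0.19) were the others past 2-fold.

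Several abundant matrix genes differed little. Sparc was at 0.20 ± 0.20, Fn1, the fibronectin gene, at 0.43 ± 0.09 and Fbn2, a fibrillin gene, at -0.02 ± 0.12 on the log2 scale. Col1a1, the main chain of type I collagen, had 160 and 115 CPM in C members and 44.5, 53.4 and 45.4 CPM in B members, against 51.1 and 61.5 CPM and 28.8, 25.3 and 25.9 CPM in the other cells. Its ratio was 0.99 ± 0.39 within columns and 0.40 in the pooled cells, which include other D cells with 56.8 CPM. In the basement membrane list 1 of 13 genes past the filter was 2-fold higher, Nid1 (1.23 ± 0.15), whereas Col4a1 and Col4a2 were at 0.00 ± 0.21 and 0.03 ± 0.18.

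Enzymes that modify collagen or cut matrix, and the inhibitors of that cutting, were in part higher too. Of 17 genes 6 were at least 2-fold higher, 0 were 2-fold lower, and 16 were higher in all 5 columns, the last without a share over all genes. The 6 were the inhibitors Timp1, Timp2 and Timp3, the lysyl hydroxylase Plod2 (1.46 ± 0.18), the procollagen proteinase Bmp1 (1.11 ± 0.22) and the membrane metalloproteinase Mmp14 (1.11 ± 0.15). In pooled cells Serpinh1, the collagen chaperone, was at 1129 CPM in members and 659 CPM in other kept cells. The summed list was at 1334 CPM in other cells pooled, but at 1640 to 1737 CPM within the 5 columns. Of 8 genes for osteopontin receptors, the integrin subunits Itgav (1.15 ± 0.14), Itgb3 (1.02 ± 0.30) and Itgb5 (1.49 ± 0.32) were 2-fold higher, and Cd44 was at 0.70 ± 0.33. Of the 7 TGF-beta genes 0 reached 2-fold, with Tgfbi, a secreted target of that pathway, at 0.99 ± 0.20. All 7 were higher in all 5 columns, again without a share over all genes.

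**Figure D4:**
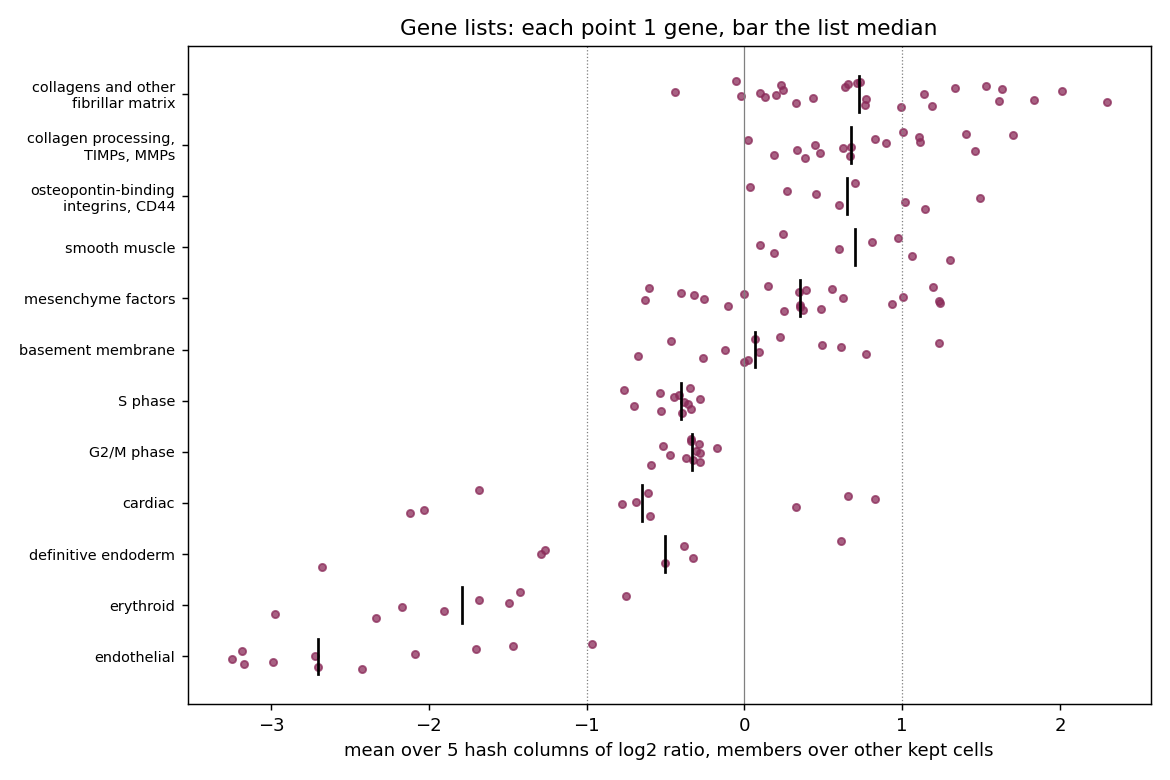
Mean over 5 hash columns of the log2 ratio of members over other kept cells, for each gene past the filter in 12 lists (points), with the list median (bar) and dotted lines at 2-fold. Matrix, collagen processing, osteopontin receptor and smooth muscle lists lie mostly above 0, and the S phase, G2/M, erythroid and endothelial lists lie below 0.

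The label of mesenchyme-like cells held in part against its markers. Of 22 mesenchyme transcription factor and transition genes, 4 were 2-fold higher within columns, Prrx2 (1.24 ± 0.22), Foxc1 (1.23 ± 0.33), Msx1 (1.00 ± 0.37) and Pdgfrb (1.20 ± 0.51), and 0 were 2-fold lower. In pooled cells Vim, the intermediate filament vimentin, was at 2866 CPM in members and 1560 CPM in other kept cells, but Twist1 was at 100 and 78.9 CPM. Summed, the 22 genes were at 4052 and 2902 CPM in pooled cells. Within the 5 columns they were at 3766 to 5643 CPM in members and 3259 to 3482 CPM in other cells. Also pooled, Pdgfra, a widely used mesenchyme receptor marker, was at 3.17 CPM in members and 8.35 CPM in other kept cells. Thy1, Dcn and Lum were at 0.916, 1.12 and 5.68 CPM in members. Among smooth muscle genes, 2 of 8 past the filter were 2-fold higher. Acta2 had 3167 and 3404 CPM in C members and 2066, 2520 and 2689 CPM in B members, against 1548 and 1424 CPM and 986, 829 and 924 CPM in the other cells. Tagln, transgelin, was at 1.06 ± 0.30, while Cnn1 and Des were at 0.19 ± 0.48 and 0.25 ± 0.49 and Myh11, the smooth muscle myosin, was at 0.0447 CPM. The cells are therefore called by their 2 genes and not as a differentiated type.

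Macrophage genes were low in members and in other kept cells, trophoblast genes were not higher as a sum, and fibroblast genes were in part higher. Of the macrophage markers Ptprc and Adgre1 had 0 UMIs in members, but Adgre1 had only 2 in all other kept cells. Fcer1g was detected in 10.8% of members and 1.85% of other kept cells, and Csf1r in 3.72% and 1.15%. Within columns 0 macrophage genes reached 2-fold either way, and 2 of the 7 lay below the count filter. The summed level of the 7 genes was 6.48 CPM in members and 6.14 CPM in other kept cells. Of the trophoblast markers Prl3d1 and Tpbpa had 0 UMIs in members, but 3 of the 8 genes of that list lay below the count filter. Krt7 alone of them was 2-fold lower within columns. Ibsp, bone sialoprotein, was at 2.21 CPM in members and 0.067 CPM in other kept cells, while the osteoblast genes Sp7 and Bglap were at 0.134 and 0.0894 CPM in members. Of 11 fibroblast genes that would mark feeder cells, 10 were in the matrix, and 4 of 9 past the filter were 2-fold higher (Col1a2, Postn, Tagln and S100a4). Of this list 6 genes were higher in members in all 5 columns and 0 were 2-fold lower. Their summed level was 1858 to 3673 CPM in members and 982 to 1558 CPM in other cells over the 5 columns, most of it Tagln. Thy1 and Lox, also in the list, were at 0.916 and 0.0894 CPM in members. Whether feeder cells contribute was not tested.

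Blood and vessel genes were lower in members. Of 11 endothelial genes 10 were at least 2-fold lower within columns, with a median log2 ratio of -2.70. Kdr, the VEGF receptor of endothelium and its precursors, had 11.02 and 21.8 CPM in C members and 11.5, 18.2 and 15.1 CPM in B members. The other cells had 72.0 and 92.7 CPM in C columns and 79.4, 90.6 and 90.9 CPM in B columns. Of 8 erythroid genes 7 were 2-fold lower, with a median of -1.79. The embryonic globin Hbb-bh1 had 102 and 83.6 CPM in C members and 6.68, 12.9 and 4.42 CPM in B members. The other cells had 580 and 915 CPM in C columns and 54.8, 69.2 and 71.0 CPM in B columns.

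The selection leaves such cells out only by its own genes, and some members still held other programs. The shares given here are over pooled cells of unequal depth, and the other kept cells are mostly D cells. At least 20 UMIs summed over the erythroid list were found in 1.46% of members and 3.43% of other kept cells, over the endothelial list in 4.17% and 15.6%, over the definitive endoderm list in 2.14% and 8.45%, and over the haematopoietic progenitor list in 9.80% and 9.66%. The fibroblast list reached 20 UMIs in 86.7% of members and 21.9% of other cells, with medians of 76 and 4 UMIs, and it holds Tagln and collagen genes described above. Its summed level in other cells was 563.5 CPM pooled but 982 to 1558 CPM within the 5 columns, so the pooled contrast is larger than that within columns. The cardiac list reached 20 UMIs in 8.67% of members and 2.12% of other cells. Summed over cells, however, 0 of its 10 genes were 2-fold higher within columns and 3 were 2-fold lower (Myl7, Myl4 and Ttn), with a median of -0.65. The list includes Actc1, a cardiac and early muscle actin, which had 73.1 and 39.5 CPM in C members and 26.9, 71.6 and 84.7 CPM in B members. The other cells had 181 and 80.4 CPM in C columns and 29.1, 18.4 and 18.4 CPM in B columns, so only B2 and B3 had more Actc1 in members. The selection removes cells with all of the 4 cardiac genes, which touches this list.

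Genes of other lineages were lower or differed little. Within columns, 0 genes were 2-fold higher in the parietal endoderm, visceral endoderm, definitive endoderm, neuroectoderm, primitive streak, pluripotency and haematopoietic progenitor lists. Of all genes tested only 1.36% were, so 0 in lists this short is near that share, and 1.97% of all genes were 2-fold lower. Lower by 2-fold or more were Sox7 and Sox17 of 13 parietal endoderm genes, Ttr of 9 visceral endoderm genes, and T, Eomes and Fgf8 of 7 primitive streak genes. So were Sox3, Zic1 and Zic2 of 8 neuroectoderm genes, Tdgf1 and Dnmt3b of 7 pluripotency genes, and Tal1 and Itga2b of 6 blood progenitor genes. Runx1, in the last list, stood apart at 0.81 ± 0.09. Of 14 genes of the allantois and extra-embryonic mesoderm, 0 reached 2-fold either way, and Hand1 was at 0.00 ± 0.31 within columns against -1.53 in the pooled cells. Foxf1 was at -0.83 ± 0.38 and -2.03.

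Signalling genes differed little. Of 10 BMP genes Msx1 alone was 2-fold higher, and Bmp2, a ligand, was at 0.99 ± 0.05. Of 7 p53 targets, 8 glycolysis and hypoxia genes and 5 YAP targets in the matrix, 0 reached 2-fold. Of 8 early response genes only Atf3, a stress-induced factor, was 2-fold lower (-1.08 ± 0.24), and Fos, a marker of dissociation stress, was at -0.43 ± 0.44.

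The 10 genes with the lowest pooled ratio, by the same rule, were Hbb-bh1, Myl7, Cfc1, Spink1, Esam, Ttr, Tdgf1, Igf1, Hba-x and Rasip1. Igf1, the insulin-like growth factor, was at 1.81 CPM in members and 12.2 CPM in other kept cells, with a within-column log2 ratio of -2.66 ± 1.05. In the list of 11 genes for these factors, their receptors and binding proteins, 2 were 2-fold higher (Igfbp5, at 1.29 ± 0.47, and Igfbp7) and Igf1 alone was 2-fold lower. The binding protein genes Igfbp3 and Igfbp2 were at 0.66 ± 0.20 and -0.59 ± 0.33. Cfc1 and Tdgf1, co-receptors for Nodal, had pooled ratios of -2.70 and -2.26, but -1.16 ± 0.74 and -1.05 ± 0.97 within columns. Myl7 is part of the selection rule.

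Cell cycle genes were slightly lower in members. The median within-column ratios were -0.40 for 12 S phase and -0.33 for 12 G2/M genes, beside -0.022 over all genes tested, and 0 of the 24 reached 2-fold. All 12 S phase and 11 G2/M genes were lower in all 5 columns, counts that have no share over all genes beside them. In B cells thinned to 20000 UMIs, members had a median of 12 G2/M UMIs (quartiles 3 and 46, 507 cells) and other cells a median of 28 (quartiles 7 and 54, 2088 cells). At least 10 G2/M UMIs were held by 51.5% of members and 71.2% of the other cells. The upper quartiles are closer than the medians.

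Among imprinted genes, 0 of 20 were 2-fold higher and 2 were 2-fold lower within columns. Mest, a fetal growth gene, had 473 and 408 CPM in C members and 447, 494 and 505 CPM in B members, against 824 and 925 CPM and 1063, 1103 and 1033 CPM in the other cells. Its ratio was -1.08 ± 0.18, and that of Phlda2, a growth suppressor of the placenta, was -1.37 ± 0.32. Igf2r, the clearance receptor for IGF2, was at 0.99 ± 0.15 but at 2.21 in the pooled cells. Of 36 Hox genes past the filter, only Hoxb9 was 2-fold higher within columns (1.20 ± 0.17), although 5 were higher in all 5 columns.

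Beside cells past the threshold of only one of the genes, members had fewer 4-fold differences from the Col3a1 than from the Spp1 single-positive cells. Such cells may hold the other gene below its threshold. In B columns Spp1 was at 29 CPM in Col3a1 single-positive cells, and Col3a1 at 16.1 CPM in Spp1 single-positive cells. The Col3a1 single-positive cells are described first. These 1536 cells had at least 3 Col3a1 but under 5 Spp1 UMIs. Of 14492 genes tested, 3 were at least 4-fold higher and 0 at least 4-fold lower in members than in them. Against the 646 Spp1 single-positive cells, 15 of 14883 genes were 4-fold higher and 51 were 4-fold lower. These counts are pooled and mix the cell state with the column. The Col3a1 single-positive cells were 189 D, 543 C and 526 B cells, and the members 89, 154 and 528. Spp1 and Col3a1 themselves differ between these groups by the selection. In the B columns Igfbp7 was at 260 CPM in the 528 members, 164 CPM in 526 Col3a1 single-positive cells and 42.9 CPM in 268 Spp1 single-positive cells. Nupr1 was at 644, 265 and 192 CPM in the same order, and Mmp9 at 242, 104 and 94.6 CPM, so both were above both kinds of single-positive cell. Epcam, an epithelial adhesion protein, was at 11.2, 9.97 and 58.9 CPM, and the tight junction gene Cldn6 at 4.25, 2.94 and 22.3 CPM. Both epithelial genes were thus higher in Spp1 single-positive cells than in members.

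Among genes with at least 100 UMIs in members, those with the highest ratio to Col3a1 single-positive cells were Spp1, Nupr1, Cd28, Emp1, Gzme, Mcpt8, Ank, Nt5e, Trbc1 and Dppa5a. Gzme and Mcpt8 encode proteases known from lymphoid cells and basophils, and they were at 5.21 and 3.51 CPM in members and 0.419 and 0.173 CPM in Col3a1 single-positive cells. Dppa5a, a pluripotency gene, was detected in only 1.91% of members. The genes highest against Spp1 single-positive cells were Col3a1, Hoxb5os, Mgp, Slfn2, Igfbp7, Mctp1, Hoxd11, 2610528A11Rik, Actc1 and Hbb-bs. Mgp, matrix Gla protein, was at 21.5 CPM in members, 14.9 CPM in Col3a1 single-positive and 2.85 CPM in Spp1 single-positive cells.

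Over all columns pooled, more genes were 4-fold higher in members against Hand1 Foxf1 or Pitx1 Tbx4 cells than against either single-positive group. Cells with Hand1 and Foxf1 transcripts numbered 8187, of which 6372 were in D columns, and those with Pitx1 and Tbx4 numbered 1254, of which 949 were. Members had 230 genes at least 4-fold higher and 20 at least 4-fold lower than the Hand1 Foxf1 cells, of 14436 tested. Against the Pitx1 Tbx4 cells the counts were 204 and 16 of 14449. Members are mostly B cells, so these pooled counts mix the cell type with the column, and none is given within columns. Within B columns, where 543 and 60 of these cells lay, Igfbp7 was at 260 CPM in members, 22.7 CPM in Hand1 Foxf1 cells and 91.6 CPM in Pitx1 Tbx4 cells. Foxf1, a factor of splanchnic and allantoic mesoderm that selected one of these groups, was at 8.50 CPM in B members.

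**Figure D5:**
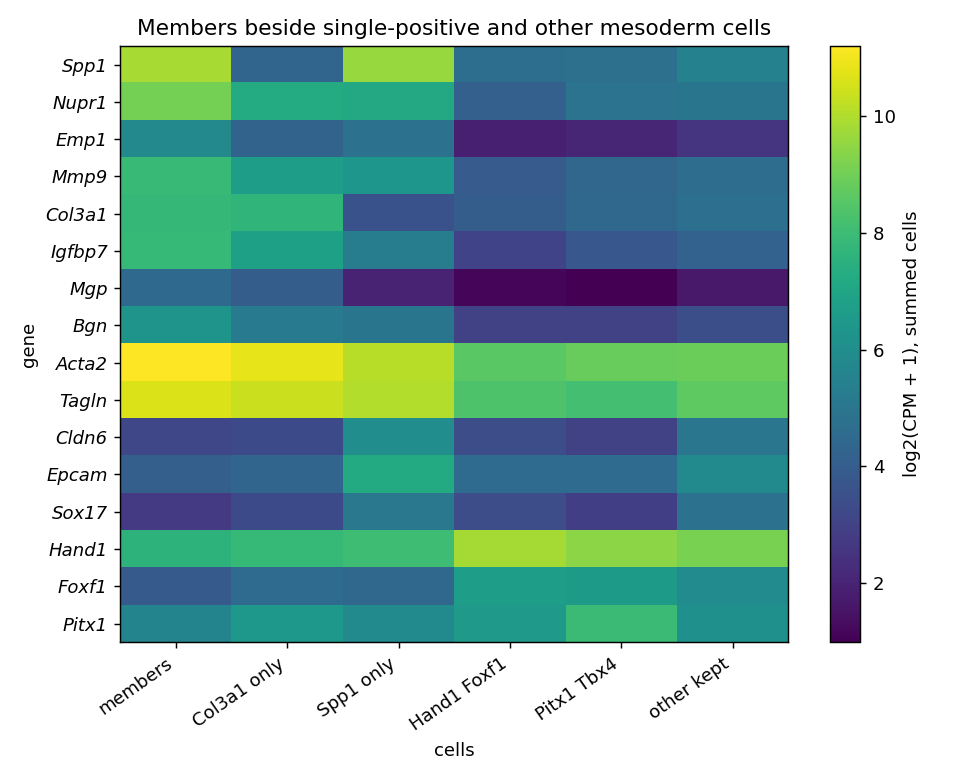
Log2 of CPM plus 1 over summed cells (colour) for 16 genes in members, Col3a1 single-positive, Spp1 single-positive, Hand1 Foxf1, Pitx1 Tbx4 and all other kept cells, over all hash columns. Nupr1, Mmp9 and Igfbp7 are highest in members, and Epcam, Cldn6 and Sox17 are highest in Spp1 single-positive cells.

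Members varied widely among themselves in a few genes. In 507 B members thinned to 20000 UMIs (21 shallower ones left out), the variance of Nupr1 counts was 80.5 times their mean, with 28.4% of cells at 0, a median of 2 and a highest value of 313. Acta2 had quartiles of 8, 31 and 68 UMIs and Tagln of 5, 18 and 42.5. Krt8, a keratin of simple epithelia, had quartiles of 1, 4 and 15.5 UMIs and 19.1% of cells at 0. Igfbp7 had quartiles of 1, 3 and 8 UMIs and Mfge8 of 13.5, 28 and 45. Crabp1, a retinoic acid binding protein, had a variance 109 times its mean that rested on 4 cells with 10 or more UMIs. For Mgp too, 88.0% of cells had none, and 4 held 10 or more.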

How the data were processed

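Embryoid body cells were profiled on 10x Chromium v3. Per the submitters' processing notes, Cell Ranger, HISAT2 2.0.5 and further tools are listed beside the mm10 build, without roles, and the matrix header gives software version 3.1.0. The authors deposited UMI counts per gene and cell and hash counts per cell. Bulk tables were not used here.

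From these counts, cells were filtered and selected as stated, summed, and scaled to CPM. Ratios used a pseudocount of 1 CPM and genes with at least 10 UMIs observed or expected in members. Named genes needed at least 100 UMIs in members (for lower genes, observed or expected) and the same direction in all columns with at least 20 members, and the 10 highest genes against either single-positive group needed only the first. Every list is given by its counts. Where a symbol was listed again (36 rows), the gene listed first was used. The members and lists were chosen with earlier results of these data known, and the 2-fold within-column measure was added after seeing the data. The planned test of genes between D and B members was not run, because every D column held 10 to 17 members, below the minimum of 20 set for it. Doublets were treated only through the hash counts. All steps ran in Python 3.11.15 with numpy 2.4.6, scipy 1.17.1 and pandas 2.3.3. Only the pooled ratio was tried on simulated counts, which held large planted changes and no hash columns. The within-column ratio and the mix of columns were not simulated.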

Additional observations from a re-analysis of the deposited data

Results flagged for a closer look

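Among 12 measures over the 7 D columns, 3 had a column far from the other D columns by the gap to its nearest neighbour, where chance gives about 1 in 20. These were the share of cells with at least 3 Igfbp7 UMIs in D31 (1.38%), the share with at least 3 Mmp9 UMIs in D2 (5.86%) and the Grb10 level of members in D332 (190 CPM, in 11 members). A further pair of genes were higher in members of all B columns and lower in members of both C columns than in the other cells of the column. Trbc1, a T cell receptor constant segment, differed by -2.75 (C minus B, log2), and 2610528A11Rik by -1.28. These differences between columns were not tested, and Trbc1 had only 0.408 and 1.51 CPM in C members.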

How the results depend on the processing

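The member share of 4.99% was 6.72% with thresholds of 3 and 2 UMIs and 2.78% with 10 and 6. The 95 genes 4-fold higher became 17 with a pseudocount of 10 CPM, 12 as the mean over hash columns and 15 in B columns alone. The 29 genes 4-fold lower became 3, 59 and 70 in the same settings, and 49 with thresholds of 10 and 6 UMIs. Dppa5a turned to -3.37 with thresholds of 10 and 6, -1.43 in B columns and -0.33 over hash columns, and the cause was not tested. The other 47 of 48 named genes kept their direction under all 8 alternatives. For the leading higher and lower genes this was largely set in advance over hash columns and in B columns, because they had to share a direction in all 5 columns. Sizes did change. From pooled cells to B columns alone, the log2 ratio went from 3.62 to 2.21 for Igfbp7, 2.415 to 1.455 for Mfge8 and 2.19 to 0.468 for Grb10. The D minus B share of -16.35 points ranged from -17.04 to -15.68 with 1 column left out, and was -16.33 with the D3 columns summed (exact permutation p = 0.1). It kept its direction under every alternative run. No paired analysis was possible because no label ties a D column to a B column and the test of genes within members, with its alternatives, was not run. A depth of 10 to 17 members per D column limits what can be said of D members.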
